A study of Mus musculus with 221 samples.

Results

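The enzymes described here are 10 genes that write or remove methyl groups on histone lysines and are known for resetting chromatin after fertilization, out of 55291 genes in the count table. They were listed by name for this role, with earlier results of these data known. The demethylases (erasers) are Kdm1a, Kdm1b, Kdm4a, Kdm5a, Kdm5b and Kdm6b, and the methyltransferases (writers) are Kmt2b, Kmt2d, Setdb1 and Ezh2. Their RNA was read in single early 2-cell mouse embryos, each made into 1 Smart-seq2 library, a method that reads polyadenylated RNA over its full length after PCR. All embryos came from in vitro fertilization of oocytes with C57BL/6N nuclear DNA and the mitochondrial DNA of the Staudach (ST) line, taken from superovulated females. The groups differed in the diet of the sire: frozen and thawed sperm came from young adult C57BL/6N males kept for a short period on a high-fat diet (HFD, 38 embryos numbered 31 to 70 in the sample titles and 84 with other numbers) or a low-fat diet (LFD, 99 embryos). Neither sire, date nor sex of an embryo is labelled. Embryos of the same sire were therefore counted as separate, which the p-values do not allow for, and a difference between diets cannot be told apart from a difference between their few males.

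Methyl groups on histone tails mark which regions of chromatin are open to transcription and which are shut, and each enzyme adds or removes them at particular lysines. KMT2B and KMT2D methylate lysine 4 of histone H3, a mark of promoters and enhancers, and KDM1A, KDM1B, KDM5A and KDM5B remove it. SETDB1 writes the repressive mark on lysine 9, which KDM4A removes, and EZH2, the catalytic subunit of Polycomb repressive complex 2 (PRC2), writes the repressive mark on lysine 27, which KDM6B removes. The oocyte carries much of this machinery as stored RNA, and in the mouse the embryonic genome is switched on at the 2-cell stage while maternal RNA is cleared.

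The libraries held between 1937251 and 17246791 counts, and the medians were 5718556 for HFD and 5701723 for LFD embryos. All 20 transcripts listed as maternal and all 20 listed as 2-cell-stage had a median count above 0 in both diets. The macrophage list (14 genes) summed to between 5.62 and 7.47 log2 CPM (counts in each 1000000, 0.5 added) in LFD embryos and to between 4.34 and 12.61 in HFD embryos, 11 of which lay above every LFD embryo. Of its genes, Adgre1, C1qa, C1qc, Tyrobp and Fcer1g had a median of 0 over all embryos. The cumulus and granulosa list (12 genes) had medians of 6.89 in HFD and 6.78 in LFD embryos. Its genes Fshr, Foxl2, Ptx3, Has2, Ptgs2, Inhba and Inha had a median of 0 in both diets. Medians above 0 in both were those of Nr5a2 (66.96 CPM in HFD and 56.95 in LFD embryos), Gja1 (31.965 and 30.669), Cyp19a1 and Tnfaip6. The median of Amh was above 0 in HFD embryos only. The sperm list (8 genes) had medians of 2.11 in HFD and 2.05 in LFD embryos. HFD embryos numbered 31 to 70 held a median of 17613 detected genes, against 19310 in the other 84 HFD embryos and 18723 in LFD embryos. Fold changes between diets that moved by over 1.5 times without them are given both ways.

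All 10 genes were read in nearly every embryo. Only Kdm1a was at 0 anywhere, in 1 HFD and 1 LFD embryo. Compared per kilobase of exon in each 1000000 (the TPM form, in which genes of different length can be set side by side), the highest median over all embryos was that of Kdm1b, at 132.7. KDM1B is the oocyte demethylase known for its part in setting maternal imprints. Ezh2 followed at 103.1 and Kmt2d at 85.2. Setdb1 (46.96), Kdm5b (37.5) and Kdm6b (32.1) formed the middle of the order, Kdm4a stood at 19.1, and Kdm5a (9.47), Kmt2b (8.32) and Kdm1a (6.00) were lowest. Each diet taken by itself gave the same order.

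Neighbours in this order often changed places within an embryo. Kdm1b exceeded Ezh2 in 73.8% of embryos, Ezh2 exceeded Kmt2d in 69.7%, Setdb1 exceeded Kdm5b in 70.1% and Kdm5b exceeded Kdm6b in 60.6%. Kdm5a lay above Kmt2b in 57.9% and Kmt2b above Kdm1a in 68.8%. Clear steps were those from Kmt2d to Setdb1, held by 94.6% of embryos, from Kdm6b to Kdm4a (90.5%) and from Kdm4a to Kdm5a (90.05%). The order depended on the length used, because the exons of all transcripts of a gene were joined: with the longest protein-coding transcript instead, 4 of 10 genes kept their rank and Ezh2 came first, at 96.5 counts per kilobase in each 1000000 against 57.7 for Kdm1b.

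**Figure D1:**
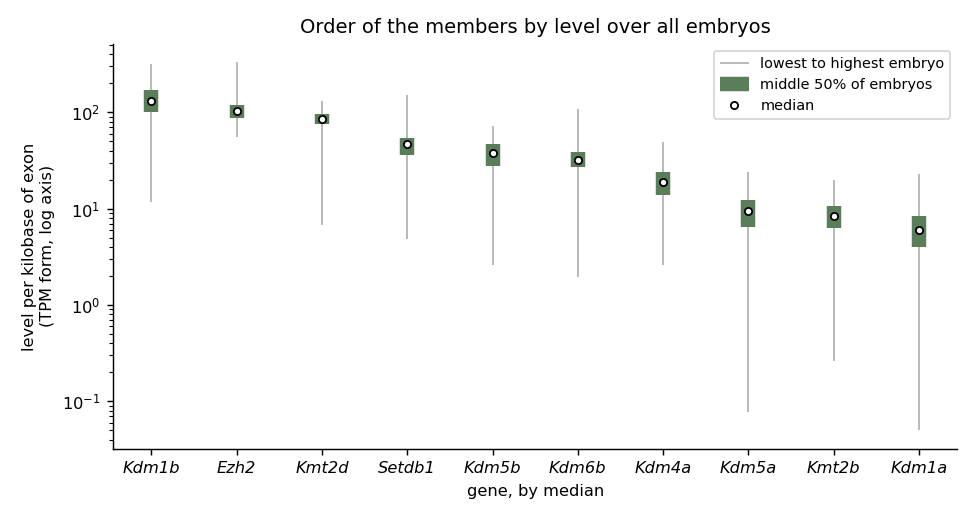
Level of each gene per kilobase of exon in each 1000000, on a log axis, over all embryos. White points are medians, thick bars the middle 50% of embryos and thin lines the whole range (Kdm1a, at 0 in 2 embryos, is cut at the lower end); Kdm1b is highest at 132.7 and Kdm1a lowest at 6.00.

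The first comparison asked whether these enzymes differ between embryos of HFD and LFD sires. None of the 10 passed a false discovery rate (FDR) of 0.05 in edgeR's quasi-likelihood test, where 314 of 14820 genes tested did, a background of 2.12% (1.07% higher and 1.05% lower in HFD embryos). At an unadjusted p under 0.05 stood 3 of the 10, Setdb1, Kdm1a and Kdm4a, where 12.8% of all genes did. DESeq2 called 1 of the 10 (Setdb1), with a background of 2.51%, and limma-voom called 0, with a background of 2.19%. Allowing embryos of the same 10 numbers, of either diet, to be correlated in limma-voom gave 1 call (Setdb1), against 2.72% of all genes. The correlation within these ranges was 0.024. The ranges are of numbers and not of sires, so this fit does not allow for shared sires. The median log2 fold change (HFD over LFD) was -0.03 over the 10 and 0.00435 over all genes, and 4 of the 10 were positive. On simulated counts the edgeR test recovered 21.74% of genes changed by 0.25 log2, so a difference of that size can be missed. Each fold change below has its standard error (SE) and its FDR over all genes. The ranges of levels below include the 8 libraries with fewer than 15000 detected genes. Several ends of these ranges come from such libraries, such as 0.50 log2 CPM for Kmt2b in LFD embryo 33.

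**Figure D2:**
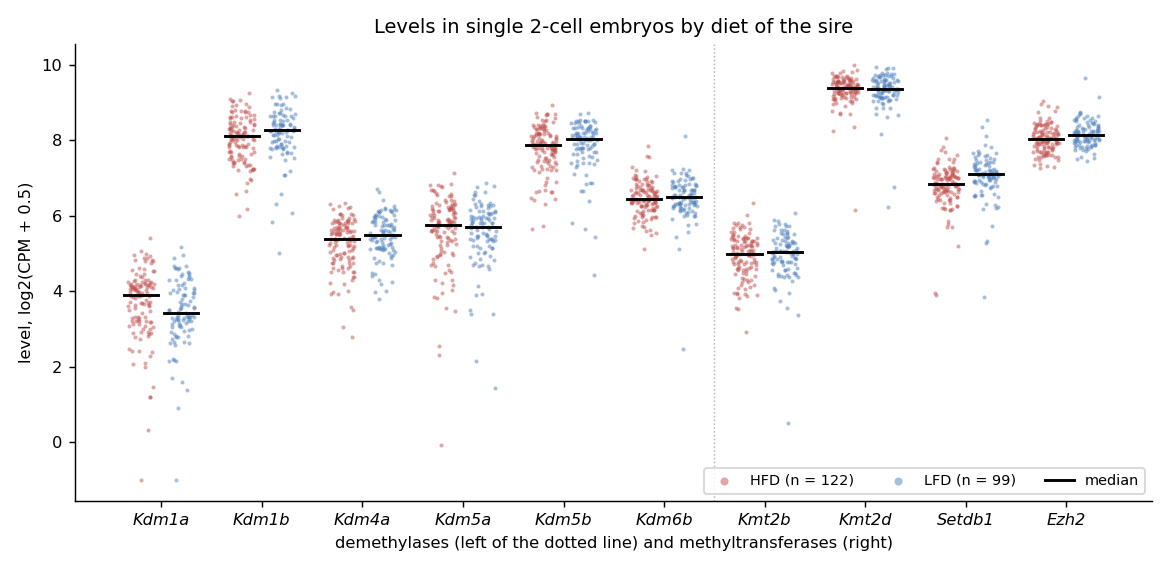
Level of the 10 enzymes as log2(CPM + 0.5), 1 point per embryo, with HFD in red, LFD (n = 99) in blue and black lines at the medians. The diets overlap over almost their whole range for every gene, and the widest gap between medians is 0.47 for Kdm1a.

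Among the lysine 4 demethylases, Kdm1a, the eraser of the CoREST corepressor complex also called LSD1, ran from -1 through a median of 3.89 to 5.42 log2 CPM in HFD and from -1 (no count) through 3.42 to 5.17 in LFD embryos. Its level lay above the LFD median in 67.2% of HFD embryos, and the ranges overlapped almost wholly. The log2 fold change was 0.26 (SE 0.12), with an FDR of 0.340 (edgeR), and 0.40 (FDR 0.0907) without HFD embryos 31 to 70. The median count of Kdm1a was 69, the fewest of the 10, and its spread was among the widest, with a standard deviation (SD) of 0.96 in HFD and 0.92 in LFD embryos. Its relative Kdm1b ran from 5.99 through 8.10 to 9.26 in HFD and from 5.02 through 8.27 to 9.32 in LFD embryos, a fold change of -0.13 (SE 0.08, FDR 0.516), and of -0.08 (FDR 0.858) without HFD embryos 31 to 70. Of the Kdm1b exon bases, 9.19% overlap Dek on the other strand, a gene with a median count of 1984, so part of its count cannot be assigned with certainty.

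The KDM5 enzymes, which remove di- and trimethylation of lysine 4, differed between the diets by less than the spread between embryos. Kdm5a ran from -0.06 through 5.77 to 7.13 log2 CPM in HFD and from 1.43 through 5.70 to 6.86 in LFD embryos. Its fold change was 0.10 (SE 0.11), with a 95% interval from -0.11 to 0.30. Kdm5b, which is known to be needed for removing the broad lysine 4 domains inherited from the oocyte, ran from 5.64 through 7.88 to 8.93 in HFD and from 4.43 through 8.04 to 8.73 in LFD embryos. The interval of its difference was -0.20 to 0.09, around a fold change of -0.06 (SE 0.08, FDR 0.833).

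Kdm4a, the lysine 9 demethylase known as a maternal factor, ran from 2.80 through 5.38 to 6.33 log2 CPM in HFD and from 3.80 through 5.49 to 6.71 in LFD embryos. At the low end 4 HFD embryos lay below every LFD embryo, and at the high end 3 LFD embryos lay above every HFD embryo. The fold change was -0.16 (SE 0.08), with an FDR of 0.383. Kdm6b, the lysine 27 demethylase also called JMJD3, ran from 5.13 through 6.43 to 7.85 in HFD and from 2.47 through 6.49 to 8.12 in LFD embryos. Its fold change was -0.00716 (SE 0.06), with an interval from -0.13 to 0.12. Without HFD embryos 31 to 70, whose mean was 6.68 log2 CPM against 6.36 in the other HFD and 6.47 in LFD embryos, it was -0.09 (FDR 0.735).

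Of the writers, the lysine 4 methyltransferases lay closest to no difference. Kmt2b, known as the oocyte's main enzyme for trimethylation of lysine 4, ran from 2.91 through 4.997 to 6.33 log2 CPM in HFD and from 0.50 through 5.03 to 6.07 in LFD embryos. Its fold change was 0.00408 (SE 0.08), with an interval from -0.15 to 0.15, and -0.02 (FDR 0.975) without HFD embryos 31 to 70. Kmt2d, which is known for monomethylation of enhancers, had the narrowest spread in HFD embryos after Ezh2 (SD 0.40 against 0.36 log2 CPM). In the 84 HFD embryos outside numbers 31 to 70 the order was reversed, with an SD of 0.23 for Kmt2d and 0.37 for Ezh2. Kmt2d ran from 6.15 through 9.39 to 9.999 in HFD and from 6.23 through 9.37 to 9.93 in LFD embryos. Its fold change was 0.03 (SE 0.05), with an interval from -0.07 to 0.13. Ezh2 ran from 7.27 through 8.04 to 9.04 in HFD and from 7.46 through 8.15 to 9.65 in LFD embryos. Its fold change was -0.09 (SE 0.06, FDR 0.545), and 61.5% of HFD embryos lay below the LFD median.

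**Figure D3:**
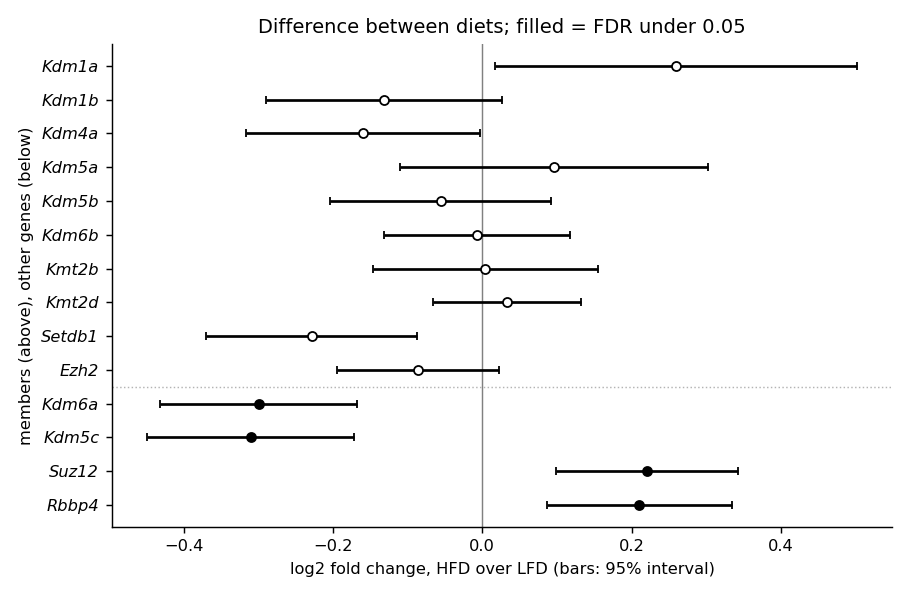
Log2 fold change between diets (HFD over LFD) for the 10 enzymes, above the dotted line, and for 4 related genes that passed the threshold, below it. Bars are 95% intervals and filled points have an FDR under 0.05; the 10 points are open, with Setdb1 at -0.23 and Kdm1a at 0.26 farthest from 0.

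Setdb1, the lysine 9 methyltransferase known for silencing retroelements, came closest to the threshold. It ran from 3.90 through 6.85 to 8.07 log2 CPM in HFD and from 3.86 through 7.09 to 8.54 in LFD embryos. Of the HFD embryos 74.6% lay below the LFD median, and 3 LFD embryos lay above every HFD embryo. The fold change was -0.23 (SE 0.07), with an unadjusted p of 0.00174 and an FDR of 0.0673 (edgeR). The FDR was 0.0466 in DESeq2. Without the 8 libraries with fewer than 15000 detected genes the fold change stayed at -0.23 with an FDR of 0.0140, where 3.76% of all genes were called. Without HFD embryos 31 to 70 it was -0.10, with an FDR of 0.728, where 1.18% were called.

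The level of Setdb1 in HFD embryos 31 to 70 was 6.48 ± 0.75 log2 CPM (mean ± SD, n = 38). It was 6.93 ± 0.41 in the other HFD embryos (n = 84) and 7.04 ± 0.60 in LFD embryos (n = 99), and LFD embryos with the same numbers had a mean of 7.02. Within ranges of 10 embryo numbers, which do not pair the samples, the HFD mean was lower in 8 of the 11 ranges that hold both diets. The difference ran from -0.97, in numbers 61 to 70, to 0.18, in numbers 71 to 80. Libraries with fewer than 15000 detected genes weigh on these range means. Among them were HFD embryo 64 (3.90 log2 CPM) and LFD embryos 33 (3.86) and 73 (5.33). The median was 6.64 in HFD embryos 31 to 70, 6.97 in the other HFD and 7.09 in LFD embryos. HFD embryos 31 to 70 also had fewer detected genes, and the part of that in the Setdb1 difference was not tested. Of the 31-base stretches in Setdb1 coding transcripts, 11.8% also occur in another gene, mostly Gm4349 (7.70%), so a part of its reads could not be assigned to it with certainty.

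**Figure D4:**
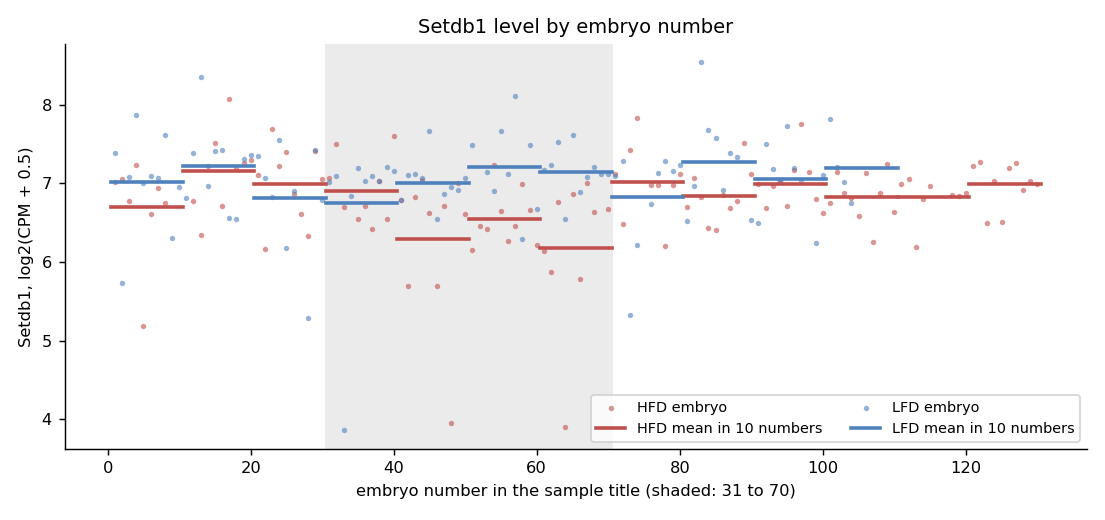
Setdb1 as log2(CPM + 0.5) against the embryo number in the sample title, 1 point per embryo, HFD red and LFD blue, with lines at the mean of each range of 10 numbers and numbers 31 to 70 shaded. The HFD mean lies farthest below the LFD mean in numbers 61 to 70, by -0.97, and above it in numbers 21 to 40 and 71 to 80. Single libraries with fewer than 15000 detected genes weigh on some of these means, among them HFD embryo 64 and LFD embryos 33 and 73.

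To set the 10 against the rest of their families, 48 other histone lysine methyltransferases and demethylases were listed, of which 43 could be tested. The median log2 fold change of the 43 was -0.04. Those called were 2, both lower in HFD embryos, where 2.12% of all genes were called (1.05% lower). The 2 were Kdm6a and Kdm5c, the X-linked relatives of Kdm6b and of Kdm5a and Kdm5b. Kdm6a ran from 5.74 through 8.28 to 9.13 log2 CPM in HFD and from 6.56 through 8.57 to 9.30 in LFD embryos, a fold change of -0.30 (SE 0.07, FDR 0.00307). Without HFD embryos 31 to 70 the fold change was -0.25 (SE 0.07), with an FDR of 0.0648. Kdm5c ran from 3.49 through 5.08 to 6.32 in HFD and from 3.10 through 5.38 to 6.61 in LFD embryos, a fold change of -0.31 (SE 0.07, FDR 0.00364).

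The HFD mean of both genes was lower in 10 of 11 ranges of embryo numbers, which do not pair the samples. The diets also differed in their Y-linked transcripts: all 6 listed genes were at 0 in 34 HFD embryos and in 41 of the 99 LFD embryos. With the Y-linked level as a covariate the fold changes were -0.29 for Kdm6a and -0.28 for Kdm5c, both still under the threshold. That level is a sum of transcripts and not the sex of an embryo. For these X-linked genes a difference in the balance of sexes cannot be told apart from a difference between diets. Among other genes on the sex chromosomes, Uty had a fold change of 0.52 (SE 0.35), Kdm5d one of -0.07 (SE 0.26) and the X-linked lysine 9 demethylase Phf8 one of -0.09 (SE 0.06). None of these passed the threshold. The next smallest p among the other enzymes was that of Suv39h1, an X-linked lysine 9 writer, at -0.17 (FDR 0.162).

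The complexes that hold the members were read through 28 partner subunits, 27 of them tested. Among these 2 were called, where 2.12% of all genes were (1.07% higher). Both were higher in HFD embryos and both are shared with EZH2 in PRC2. Suz12, a core subunit, ran from 6.92 through 8.23 to 9.31 log2 CPM in HFD and from 6.11 through 7.96 to 9.98 in LFD embryos, with a fold change of 0.22 (SE 0.06, FDR 0.0300). Rbbp4, a histone-binding subunit, ran from 4.91 through 6.47 to 7.79 in HFD and from 5.09 through 6.44 to 7.06 in LFD embryos, with a fold change of 0.21 (SE 0.06, FDR 0.0494). For Rbbp4 the medians differed by 0.04, and 18 HFD embryos lay above every LFD embryo. Neither passed without HFD embryos 31 to 70, where Suz12 was at 0.17 (FDR 0.289) and Rbbp4 at 0.07 (FDR 0.787). Rbbp4 also missed the threshold with the index (FDR 0.0529), the Y-linked level (FDR 0.0622) or the macrophage level (FDR 0.10) as covariate and in limma-voom (FDR 0.130), while Suz12 passed in each of these. The other 8 listed PRC2 subunits and all 9 tested COMPASS subunits, the partners of the KMT2 enzymes, did not pass in the edgeR test that gave these calls. Limma-voom also called 2 partner subunits, Suz12 and another that is not Rbbp4, whose direction is not given here. Of the 10 listed PRC2 subunits 6 had a positive and 4 a negative fold change in edgeR, the lowest that of Phf1, at -0.21 (FDR 0.294). Of the Rbbp4 stretches 37.9% occur in other genes as well, which makes its count uncertain.

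The second comparison asked how each enzyme's RNA varies with the progress of an embryo through the maternal to zygotic change, with diet in the model. Progress was read as the log2 ratio of summed 2-cell-stage to summed maternal transcripts. HFD embryos spanned -3.79 to -1.26 with a median of -1.98, and LFD embryos spanned -3.51 to -1.34 with a median of -2.09. A slope of 1 means that the gene doubles as the ratio doubles. Index and genes come from the same libraries, so they share depth and quality. Slopes were called for 4 of the 10, where 32.4% of 14778 genes tested were called (15.4% rising and 17% falling), so the share is close to the background.

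Kdm4a rose with a slope of 0.68 (SE 0.11, FDR 2.72e-07) and Kdm5b with 0.60 (SE 0.10, FDR 2.73e-07). Kdm5a rose less steeply, at 0.46 (SE 0.15, FDR 0.00986), and Ezh2 fell, at -0.28 (SE 0.07, FDR 0.00115). Thus 3 of the 6 demethylases and 1 of the 4 methyltransferases passed the test. Slopes of the other members were -0.40 for Kdm1a (FDR 0.0699), -0.19 for Kdm6b, 0.15 for Kmt2d, -0.12 for Setdb1, -0.10 for Kmt2b and -0.04 for Kdm1b, and none of these passed. The 4 calls also held without HFD embryos 31 to 70.

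The slopes turned on which part of the ratio was used. Against maternal transcripts alone 8 of the 10 were called, where 61% of all genes were, and against 2-cell-stage transcripts alone 2 of the 10, where 15.3% were, so neither share is read as particular to these enzymes. Against the maternal transcripts alone, with the sign turned so that a positive slope means higher where maternal RNA is lower, Kdm5a had a slope of 1.44 and Kdm5b of 0.97, while Ezh2 stood at -0.69 and Kdm1b at -0.80. Against the 2-cell-stage transcripts alone, Kdm5b (0.05), Kdm4a (0.19) and Ezh2 (0.18) did not pass. There Kdm5a turned to -0.58 (FDR 0.0105) and Kdm1b to 0.49 (FDR 0.00168), both past the threshold. None of the 3 demethylases with a called rise on the whole index had one against the 2-cell-stage transcripts.

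**Figure D5:**
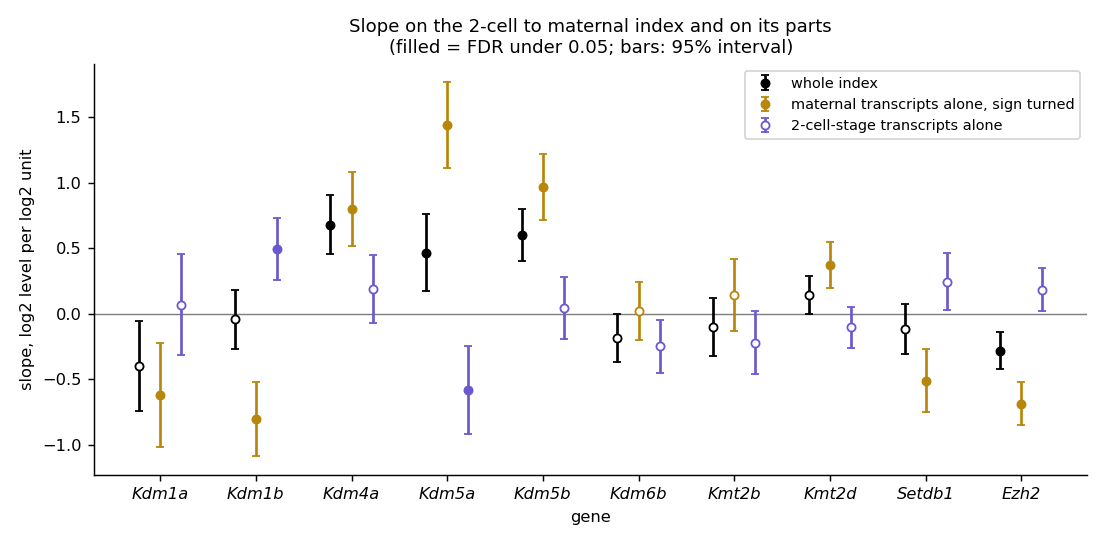
Slope of each enzyme, in log2 level per log2 unit, on the whole index (black), on maternal transcripts alone with the sign turned (gold) and on 2-cell-stage transcripts alone (violet). Bars are 95% intervals and filled points have an FDR under 0.05; Kdm5a stands at 1.44 on the maternal part and at -0.58 on the 2-cell-stage part.

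Taken by diet, 4 members were called among HFD embryos (27.7% of all genes) and 2 among LFD embryos (18.7%). Kdm4a rose in HFD (0.69) and in LFD embryos (0.61), and Kdm5b rose in both, at 0.45 and 0.89. Kdm5a passed in neither diet alone, at 0.39 (FDR 0.110) in HFD and 0.56 (FDR 0.0980) in LFD embryos. Ezh2 passed in HFD embryos, at -0.45, and was at -0.11 (FDR 0.531) in LFD embryos. Kdm6b likewise passed in HFD embryos, at -0.39, and was at 0.04 in LFD embryos. A test of the difference in slope between diets called none of the 10 and 8 of 14778 genes, or 0.0541% (edgeR). At an unadjusted p under 0.05 stood 3 of the 10, Ezh2 (p = 0.0186, FDR 0.614), Kdm6b (p = 0.0225, FDR 0.645) and Kdm5b (p = 0.0327, FDR 0.710), where 6.44% of all genes did. Of the 43 other enzymes tested on the index over both diets, 10 had a called slope, all positive. There 32.4% of all genes were called (15.4% rising and 17% falling), so the count is not read as particular to these enzymes. The steepest were Kmt5c (1.03, SE 0.38), Riox1 (0.99, SE 0.29) and Kdm4c (0.73, SE 0.17), a relative of Kdm4a, and the shallowest were Setdb2 (0.20), Kdm7a (0.24) and Setd2 (0.25).

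Promoters of Kdm4a, Kdm5b and Ezh2, which had a called slope, and of Setdb1 are shown so that their base composition and motifs can be read beside these slopes. They are the 250 bases before the RefSeq start (GRCm38.p6), 5' to 3' on the gene's strand, with capitals on CCAAT and GGGCGG in either direction. Kdm4a lies at chr4:118180044-118180293 (minus strand), Kdm5b at chr1:134559928-134560177 (plus), Ezh2 at chr6:47595031-47595280 (minus) and Setdb1 at chr3:95357203-95357452 (minus). In the count table Ezh2 reaches to 47595341, so its stretch lies inside the gene as counted. Kdm5b begins there at 134560171, inside the end of its stretch.
Kdm4a: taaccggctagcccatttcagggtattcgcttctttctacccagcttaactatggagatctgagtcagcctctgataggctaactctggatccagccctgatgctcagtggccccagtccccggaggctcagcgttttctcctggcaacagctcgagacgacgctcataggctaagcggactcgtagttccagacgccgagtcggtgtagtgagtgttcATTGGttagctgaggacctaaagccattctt
Kdm5b: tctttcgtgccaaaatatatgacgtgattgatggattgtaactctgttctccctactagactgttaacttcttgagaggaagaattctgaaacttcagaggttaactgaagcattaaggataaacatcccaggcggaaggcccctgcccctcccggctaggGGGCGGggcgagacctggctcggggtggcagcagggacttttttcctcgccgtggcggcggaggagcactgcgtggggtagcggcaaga
Ezh2: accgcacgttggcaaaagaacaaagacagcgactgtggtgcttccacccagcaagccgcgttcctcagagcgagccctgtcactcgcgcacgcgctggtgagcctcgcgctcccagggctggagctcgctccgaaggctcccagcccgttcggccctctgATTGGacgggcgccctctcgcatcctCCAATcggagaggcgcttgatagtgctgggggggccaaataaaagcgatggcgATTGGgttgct
Setdb1: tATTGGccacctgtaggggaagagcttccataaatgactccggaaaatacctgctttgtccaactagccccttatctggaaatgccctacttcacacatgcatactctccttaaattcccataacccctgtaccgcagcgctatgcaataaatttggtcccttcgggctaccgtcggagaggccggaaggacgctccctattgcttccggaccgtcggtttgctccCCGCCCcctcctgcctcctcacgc

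Promoters of 7 of the 10 members were used, without Kdm5a, Kdm6b and Kmt2b. CCAAT, the motif bound by NF-Y, was found on either strand in 4 of these 7 and in 33.9% of all 32851 promoters over the same 250 bases. GGGCGG, the GC box bound by Sp1, was also found in 4 of the 7, and in 32.7% of all. Ezh2, the member with a called fall, held CCAAT 3 times, the nearest starting 11 bases before the start. Kdm4a held it once and Kdm5b held only a GC box, 89 bases before the start. CCAAT also stood in Kdm1a and Setdb1, and the GC box in Kdm1b, Kmt2d and Setdb1. None of these had a called slope on the whole index, and a link between motifs and slopes was not tested. No member promoter held TATAAA (12.4% of all), AAGGTCA, the motif of NR5A2 (4.08%), or GGATTA, a homeobox motif (6.25%). Member promoters held between 12 (Kdm4a) and 26 (Kmt2d) CG pairs, where the median over all promoters was 6.

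Across all embryos the members varied mostly apart from each other. Of their 45 pairs, 29 had a Spearman rho between -0.2 and 0.2. The highest was that of Kdm5a and Kdm5b, at 0.55 (Pearson's r 0.67, and 0.68 without the 2 embryos farthest from the median of Kdm5a). Within the diets it was 0.61 (HFD) and 0.48 (LFD). With the index taken out it was 0.56. Ezh2 ran opposite to both, with a rho of -0.46 against Kdm5a and -0.45 against Kdm5b, and of -0.43 and -0.39 with the index taken out. Thus both KDM5 demethylases tended to be high in embryos in which Ezh2 was low, in both diets. Kmt2d went with Kdm6b at 0.35, Kdm5a at 0.33 and Kmt2b at 0.32. These are descriptions over single libraries that share depth and composition, and they carry no test.

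For each member, the gene most like it among the 14819 other genes tested was found by Spearman's rho over all embryos. Kdm5b went with Mta2, a subunit of the NuRD deacetylase complex, at 0.75, and Kdm5a with Eif3c, a translation initiation factor, at 0.72. Kdm1b went with Api5 at 0.71, Ezh2 with Skp1a, a ubiquitin ligase subunit, at 0.62, and Setdb1 with Dcaf8 at 0.59. The closest genes to the others were Tcf20 for Kmt2d (0.54), Akap8 for Kdm4a (0.53), Ric1 for Kdm6b (0.50), Arid1a, a chromatin remodelling subunit, for Kmt2b (0.41) and Cnot6l, a deadenylase of maternal RNA, for Kdm1a (0.40). The rho of Kdm1b and Api5 was 0.69 in HFD and 0.74 in LFD embryos, while that of Kmt2b and Arid1a was 0.51 and 0.27.

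The positions of the members in the count table (GRCm38) are as follows. Kdm1a (start 136550540, end 136602723) and Kdm4a (118136957 to 118180043) are on chromosome 4, and Kdm5a (120364124 to 120444574) and Ezh2 (47530139 to 47595341) on chromosome 6. Kdm1b lies on chromosome 13 (47043499 to 47085279), Kdm5b on 1 (134560171 to 134635285), Kdm6b on 11 (69398508 to 69413675), Kmt2b on 7 (30568858 to 30588726), Kmt2d on 15 (98831669 to 98871204) and Setdb1 on 3 (95323525 to 95357202).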

How the data were processed

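The 221 single-embryo libraries were grouped by the diet in the sample titles (122 HFD and 99 LFD). The table deposited by the authors holds unnormalized counts for each gene. Per the submitters' processing notes, the study's methods and the file headers, the authors trimmed reads with Trim Galore 0.6.6, aligned them with STAR 2.7.10a to GRCm38 carrying the mitochondrial sequence of the Staudach line, and counted exons of Ensembl 102 genes with featureCounts 2.0.3, both ends aligned and strand setting 2. Smart-seq2 does not mark strand, so this setting leaves out part of the reads and gives a gene reads of its antisense partner. Each read of a pair was counted by itself. Without molecular identifiers, PCR copies cannot be told from separate molecules, and the spread between embryos was used as the error. Among the 50 most alike pairs of libraries the lowest chi-square per gene was 13.0, so none was counted as a duplicate.

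Counts were tested with edgeR 4.0.16 (R 4.3.3, quasi-likelihood, TMM, filterByExpr by diet), and p-values were adjusted over all genes tested by Benjamini and Hochberg's method. Each SE is the fold change over the square root of F. DESeq2 1.42.0 and limma-voom (limma 3.58.1) were alternatives. Genes of the index were left out of the slope fits. Tables were made with Python 3.11.15 and pandas 2.3.3. The edgeR fits were tested on simulated counts with known changes. The diet fit recovered 21.74% of genes changed by 0.25 log2, 62.5% at 0.50 and 93.88% at 1. The slope fit recovered 12% of genes with a slope of 0.25, 52% at 0.50 and 74% at 1. The members, the gene lists and the alternatives were chosen with earlier results of these data known. All members were named, with called genes of the other lists, the smallest p (Suv39h1) and the steepest and shallowest called slopes. The test of slopes between diets, the transcript length and the fits without the block or, for slopes, without HFD embryos 31 to 70 were added after seeing the data. Embryo sex and mitochondrial clusters were not used as groups.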

Additional observations from a re-analysis of the deposited data

How the results depend on the processing

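Between the diets 314 genes were called (2.12% of those tested), and 7030 (15.4%) without the low-count filter, 560 (3.76%) without libraries with few genes and 1.18% without HFD embryos 31 to 70. The other settings run (RLE size factors, DESeq2, limma-voom with and without number ranges, mitochondrial genes taken out, and the index, Y-linked or macrophage level as covariate) stayed within 1.5 times of it. The count of members called was 0, and 1 (Setdb1) in DESeq2, without the filter, without libraries with few genes, with number ranges and over the shared numbers without a block. Of the other enzymes 1 was called without HFD embryos 31 to 70. Partner subunits called were 0 there, 1 (Suz12, with Rbbp4 lost) with the index, Y-linked or macrophage level as covariate, and 4 over the shared numbers without a block.

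Embryo numbers do not pair the samples: over 94 shared numbers the deviations correlated at a median of 0.00843, 17 pairs were above 0.1, and 1 embryo correlated best with its own number. With the number as a replicate block (dispersion from the fit without it), 496 genes (3.44%) and 0 members were called, and 627 genes (4.34%) and 1 member over the same embryos without the block.

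Direction turned, with no call, for Kdm6b between diets (0.00153 in limma-voom, 0.00313 with number ranges, 0.000817 without libraries with few genes, 0.00956 with the macrophage covariate, and 0.0360 with and 0.0268 without the block), and for Kmt2b (-0.0243 without HFD embryos 31 to 70, -0.0140 with the macrophage covariate).

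Genes with a called slope numbered 4787 (32.4%), and 8679 (19.1%) without the filter, 3180 (27.7%) in HFD embryos alone, 2168 (18.7%) in LFD embryos alone, 9021 (61.04%) on maternal and 2263 (15.3%) on 2-cell-stage transcripts alone. Of the members 4 were called, 2 in LFD embryos alone, 8 on maternal and 2 on 2-cell-stage transcripts alone. Slopes turned on 2-cell-stage transcripts alone for Kdm1a (0.0712), Kdm1b (0.49), Kdm5a (-0.58), Kmt2d (-0.10), Setdb1 (0.24) and Ezh2 (0.18), on maternal transcripts alone for Kdm6b (0.0207) and Kmt2b (0.14), and in LFD embryos alone for Kdm1b (0.11) and Kdm6b (0.0373). The cause was not tested. By CPM 3 members kept their rank, and 4 with the longest transcript.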
